A study of Mus musculus with 72 samples.

Results

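The lungs of 3 mice taken 48 h after whole body irradiation (WBI) with 1 Gy of X-rays were compared with the lungs of 3 mice that received 0 Gy. The comparison covers 6 of the 72 arrays of the series, chosen from the sample titles as the mRNA arrays of lung at 0 Gy and at 1 Gy, and every non-control probe on them. All animals were female C57BL/6 J mice of 6 to 8 weeks. The 0 Gy mice (1, 11 and 21) were sham irradiated in a container of the same type, and the 1 Gy mice (2, 12 and 22) received their dose in 1 exposure. Each mouse gave 1 total RNA sample of whole lung tissue, from which the polyadenylated RNA was amplified, labelled with 1 dye and hybridized to 1 Agilent array. The series as a whole measured mRNA and miRNA in liver and lung at 6 doses from 0 to 12 Gy, with 3 mice a dose.

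Radiation breaks DNA, and the damage stabilizes p53, a transcription factor that switches on genes of cell cycle arrest, DNA repair and apoptosis. Lymphocytes and blood-forming progenitors are among the most radiosensitive cells of the body and die at doses that most epithelial and endothelial cells survive. Lung holds many blood cells in its vessels beside its own alveolar, airway, vascular and stromal cells, so whole lung RNA carries the transcripts of all of them. A lower signal of a cell type's genes in such RNA can come from fewer cells of that type or from less RNA per cell, and these cannot be told apart here.

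Each array held 59305 spots of 56605 probes, and between 59.2% and 64.0% of the spots on these 6 arrays were well above the local background. No spot was saturated. Pairs of arrays correlated with Pearson's r between 0.977 and 0.989, and the lowest r lay between control mice 1 and 11. All 6 arrays shared a slide. Control mice 1 and 11 lay in its row 1, and control mouse 21 and all irradiated mice in its row 2. The part of the row in the results was not tested. One text of the series says that hearts were harvested, while the labels of these arrays give the tissue as lung. The lung defining genes were bright on all 6 arrays, with control means on a log2 scale normalized together with liver of 18.6 for the surfactant gene Sftpc and 17.9 for the alveolar type 1 gene Ager, against 7.77 and 7.27 in liver. Cardiomyocyte genes were also well above background on all 6, with Myl7 at 15.3 and Myh6 at 13.8 on that scale, and the level of the list of 11 cardiomyocyte genes overlapped between the groups (12.1 to 13.0 at 0 Gy and 12.4 to 12.8 at 1 Gy).

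Values below are log2 intensities after background correction and quantile normalization over the 18 lung arrays, and a difference is 1 Gy minus 0 Gy from a limma model of the 6 dose groups. A probe was called where the difference passed 1 on the log2 scale (2-fold) with a Benjamini-Hochberg adjusted p below 0.05. Of 43979 probes tested, 10 were called (0.0227%), 5 higher and 5 lower at 1 Gy. Named genes were taken by their brightest probe, and 8 of 19875 such genes were called (0.0403%), 3 higher (0.0151%) and 5 lower (0.0252%). The called genes were Eda2r, Cdkn1a and Gdf15 on the higher side and Cyp26b1, Plk1, H2-Ob, Flt3 and Clec9a on the lower side. The number of calls depended on the processing. With the scanner's processed signal scaled to the 75th percentile it was 17 (11 higher and 6 lower), with the authors' deposited series values 36 (15 and 21), and with an offset of 50 in the background correction 40 (6 and 34). Without control mouse 1 it was 27 and without irradiated mouse 12 it was 24. When the model held only the 6 arrays compared, none was called. In that model 2353 of 40180 probes had an unadjusted p below 0.05 by limma, against 2426 of 43979 in the model of 18 arrays. A share of 0.05 would pass this threshold where nothing differed.

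The 250 bases before the transcription start are shown for 4 of the called genes, because these carry the largest differences in each direction and the known p53 targets among the called genes. They come from RefSeq (build GRCm38.p6) and are written 5′ to 3′ on the strand of the gene. The windows lie at chr17:29090729-29090978 on the plus strand for the first start of Cdkn1a, at chrX:97377210-97377459 on the minus strand for Eda2r, at chr8:70632096-70632345 on the minus strand for the second start of Gdf15 and at chr6:84593811-84594060 on the minus strand for Cyp26b1. Capitals mark p53 half-site matches in Cdkn1a, a D-box match in Eda2r and an E-box match in Gdf15. The cell cycle homology region (TTTGAA) was not marked, and the Gdf15 window holds a match 14 bases before the start. Cyp26b1 has no capitals because it held none of the motifs searched.
Cdkn1a: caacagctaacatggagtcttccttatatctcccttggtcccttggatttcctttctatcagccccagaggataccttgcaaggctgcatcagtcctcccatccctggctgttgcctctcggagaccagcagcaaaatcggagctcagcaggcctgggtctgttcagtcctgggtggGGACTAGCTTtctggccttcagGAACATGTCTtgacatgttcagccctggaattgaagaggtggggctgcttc
Eda2r: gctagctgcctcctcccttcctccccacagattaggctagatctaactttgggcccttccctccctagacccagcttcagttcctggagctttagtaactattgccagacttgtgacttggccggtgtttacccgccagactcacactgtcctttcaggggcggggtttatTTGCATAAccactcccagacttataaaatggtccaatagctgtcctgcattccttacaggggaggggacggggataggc
Gdf15: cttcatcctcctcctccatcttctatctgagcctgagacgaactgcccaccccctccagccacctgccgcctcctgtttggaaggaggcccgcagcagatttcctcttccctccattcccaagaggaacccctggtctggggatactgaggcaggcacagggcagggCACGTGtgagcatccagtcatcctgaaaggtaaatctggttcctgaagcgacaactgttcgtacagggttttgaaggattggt
Cyp26b1: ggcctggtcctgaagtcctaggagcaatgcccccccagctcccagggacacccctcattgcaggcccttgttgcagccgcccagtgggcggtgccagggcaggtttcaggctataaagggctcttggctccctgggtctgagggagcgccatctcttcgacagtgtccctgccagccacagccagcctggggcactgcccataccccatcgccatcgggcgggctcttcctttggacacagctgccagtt

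The motifs were searched on both strands from 250 bases before to 50 bases after each RefSeq start, and no motif contains another. They were the p53 half-site, the D-box (TTATGNAA), the E-box (CACGTG), the heat shock element core (GAANNTTC), the cAMP response element (TGACGTCA), the interferon-stimulated response element and the cell cycle homology region (TTTGAA), the last of which was added after values were seen. In Cdkn1a the half-sites GGACTAGCTT and GAACATGTCT start 73 and 51 bases before the first transcription start. Cdkn1a and Gdf15 have 2 starts each, and the window of the start not shown held none of the motifs in either gene. A p53 half-site was found in 1 of the 8 called genes (12.5%), in 10 of the 20 p53 target genes that have a window (50%) and in 9.55% of all 27025 genes with a window. The E-box letters stood in 3 of the 8 called genes (37.5%) against 8.09% of all genes. The D-box letters stood in 1 of the 8 (12.5%) against 3.99%. The cell cycle homology region stood in 11 of 17 proliferation genes (64.7%), in 3 of the 8 called genes (37.5%) and in 20.2% of all genes. These are matches of letters, not measured binding.

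Eda2r, which encodes the receptor of ectodysplasin A2 in the tumour necrosis factor receptor superfamily, had the lowest adjusted p of the called genes. Its log2 intensities were 5.95, 6.08 and 6.17 at 0 Gy and 8.66, 8.01 and 8.37 at 1 Gy, so every irradiated lung lay above every control. The difference was 2.28 (standard error 0.18, adjusted p = 5.42e-05 by limma), a 4.86-fold increase. Fainter probes to another transcript of Eda2r gave 1.00 and 0.79 and were not called.

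Cdkn1a, which encodes the cyclin-dependent kinase inhibitor p21 that arrests the cell cycle, was called on both of its probes. The brighter probe read 11.37, 11.79 and 11.49 at 0 Gy and 13.49, 13.04 and 13.45 at 1 Gy. Its difference was 1.78 (standard error 0.20, adjusted p = 0.00222), a 3.43-fold increase. The fainter probe, to another transcript, read 6.26, 7.45 and 6.63 against 9.15, 8.81 and 9.14, a difference of 2.25 (standard error 0.24, adjusted p = 0.00158). The groups did not overlap on either probe.

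Gdf15, a stress-induced cytokine of the transforming growth factor beta superfamily, read 7.58, 7.57 and 7.26 at 0 Gy and 8.75, 8.81 and 8.95 at 1 Gy. The difference was 1.37 (standard error 0.17, adjusted p = 0.00567), a 2.58-fold increase. The fifth probe called higher has no gene name here. It was built to the transcript sequence AA672647 and read 5.37, 5.45 and 5.83 against 7.16 and 7.13, with the spot of mouse 22 left out as an outlier, so that its 1 Gy mean rests on 2 mice (difference 1.596, standard error 0.22, adjusted p = 0.0194).

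Cyp26b1, a cytochrome P450 that degrades retinoic acid, had the largest difference of the called probes. It read 10.57, 11.47 and 10.42 at 0 Gy and 7.76, 7.96 and 7.49 at 1 Gy, without overlap. The difference was -3.08 (standard error 0.35, adjusted p = 0.00222), an 8.48-fold decrease. Plk1, a kinase that drives mitosis, read 8.08, 8.00 and 8.66 against 6.73, 6.94 and 6.66. It fell by 1.47 (standard error 0.18, adjusted p = 0.00447).

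The other genes called lower belong to antigen-presenting cells. H2-Ob encodes the beta chain of H2-O, which modulates peptide loading of MHC class II in B cells. It read 10.001, 10.39 and 10.43 at 0 Gy and 9.11, 8.40 and 9.01 at 1 Gy and fell by 1.44 (standard error 0.18, adjusted p = 0.00567). A second, fainter H2-Ob probe gave -1.14 with overlapping groups and was not called. Flt3, a receptor tyrosine kinase of blood-forming progenitors and dendritic cells, read 8.77, 8.52 and 8.49 against 7.30, 7.14 and 7.48 and fell by 1.29 (standard error 0.20, adjusted p = 0.0339). Clec9a, a lectin receptor of cross-presenting dendritic cells, read 8.86, 8.61 and 8.67 against 7.67, 7.51 and 7.48 and fell by 1.16 (standard error 0.18, adjusted p = 0.0407). A second Clec9a probe gave -1.23 with an adjusted p of 0.384. The calls of Flt3 and Clec9a are the least stable of the 8: they were kept in 7 and 5 of 16 other processing settings, and the call of each was lost whenever any 1 of the 6 mice was left out.

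**Figure D1:**
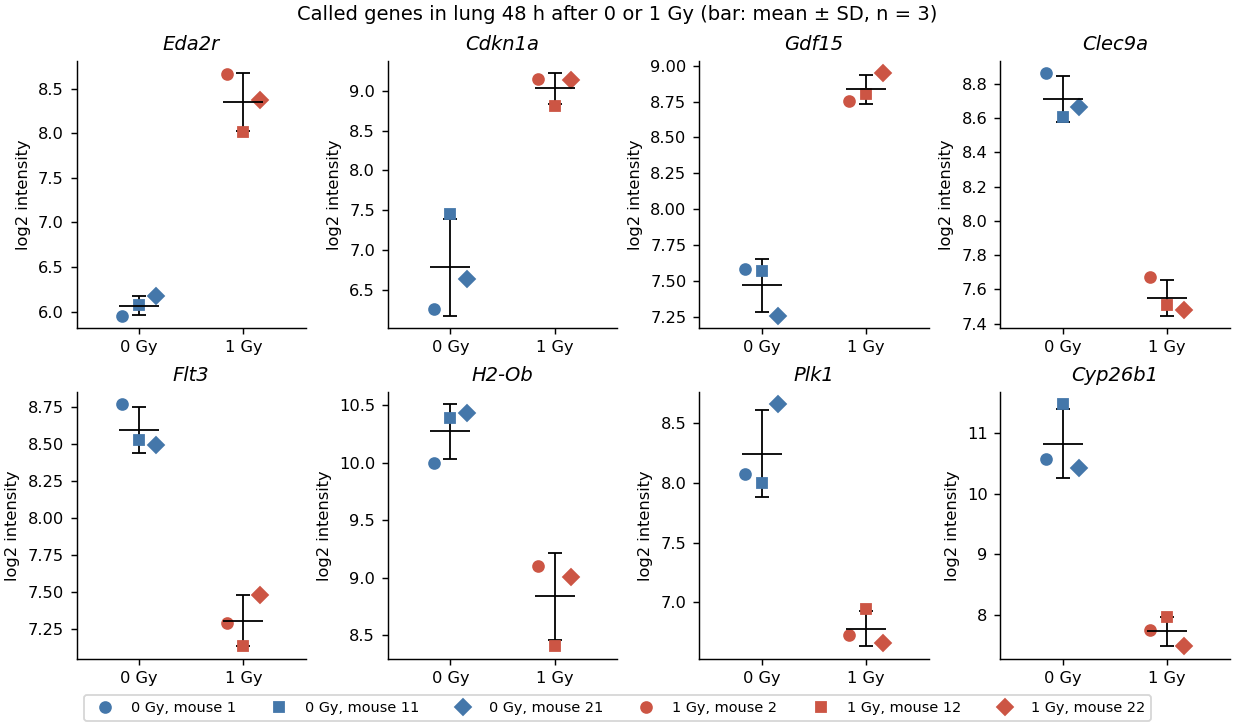
Log2 intensity of the 8 called genes in each of the 6 lungs, 1 panel a gene with its own vertical axis. Cdkn1a is shown by its fainter probe (mean 6.78 at 0 Gy and 9.03 at 1 Gy). Points are mice (blue 0 Gy, red 1 Gy) and bars are the mean and SD of 3 mice. The 2 groups do not overlap in any panel, and Cyp26b1 spans the widest gap, from a control mean of 10.82 to an irradiated mean of 7.74.

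Beyond the called genes the naming rule filled each direction with uncalled genes of over 2-fold difference whose groups did not overlap, in order of p. On the higher side Cxcl5, a neutrophil-attracting chemokine, came nearest to a call, with 5.73, 6.24 and 5.63 at 0 Gy and 7.07, 7.45 and 7.30 at 1 Gy (difference 1.41, adjusted p = 0.0514). Inka2, an inhibitor of a p21-activated kinase, gave 1.06, Hspbap1 1.04 and the stefin gene Stfa2 1.09, with adjusted p values between 0.181 and 0.233. The matrix metalloprotease gene Mmp10, the predicted gene Gm35307 and the vomeronasal receptor gene Vmn1r15 were not well above background on any control array and only on 2 irradiated arrays each. The fold at 1 Gy was at least 2.64 for Mmp10, at least 2.12 for Gm35307 and at least 1.70 for Vmn1r15, where each dim array was set to the lowest level well above background or to the probe's own value if that was higher.

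On the lower side 5 uncalled genes had adjusted p values between 0.0514 and 0.0607. Iqgap3, a scaffold protein of dividing cells, had a mean of 6.95 at 0 Gy and 5.45 at 1 Gy. Btla, an inhibitory receptor of B and T cells, gave -1.27 on the brighter of its probes, with 10.22, 10.24 and 10.64 at 0 Gy and 9.11, 9.10 and 9.07 at 1 Gy. Ltb, which encodes lymphotoxin beta of lymphocytes, gave -1.19 and H2-Oa, the partner chain of H2-Ob, gave -1.17. Pacsin1, an adaptor of endocytosis, gave -1.16 on this probe and 0.04 on a brighter one, so its probes disagreed. Cd37, a tetraspanin of leukocytes, passed the adjusted p (0.0339) and missed the fold threshold, with a difference of -0.91. It is named because it was the only probe of this kind.

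The same genes were also measured at the higher doses, each against the same 3 control mice. Every lung array at 2 Gy or more lay on other slides than the 0 and 1 Gy arrays, so dose and slide cannot be told apart in any lung difference at 2 Gy or more given here. From the lowest to the highest of the 5 doses the differences of Eda2r were 2.28, 2.68, 3.73, 4.16 and 4.46, and those of Gdf15 were 1.37, 2.29, 3.32, 3.92 and 4.52. The brighter Cdkn1a probe gave 1.78 at 1 Gy and 3.64 at 12 Gy. H2-Ob gave -1.44, -2.23, -3.20, -3.82 and -3.75 and Flt3 gave -1.29, -1.44, -2.26, -2.41 and -3.45. Plk1 stayed between -1.73 and -0.95 at all 5 doses, and Clec9a between -1.16 and -0.86. Cyp26b1 differed from this: its difference was -3.08 at 1 Gy, -1.33 at 2 Gy (adjusted p = 0.154), -0.60 at 4 Gy, 0.37 at 8 Gy and -0.08 at 12 Gy. The step from 1 to 2 Gy was 1.76 for Cyp26b1 (standard error 0.35, adjusted p = 0.400) and was not called. Among 43979 probes, 1 was called between 2 Gy and 1 Gy (0.00227%), the unnamed probe to AA672647, at -1.78 (standard error 0.22, adjusted p = 0.0433).

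**Figure D2:**
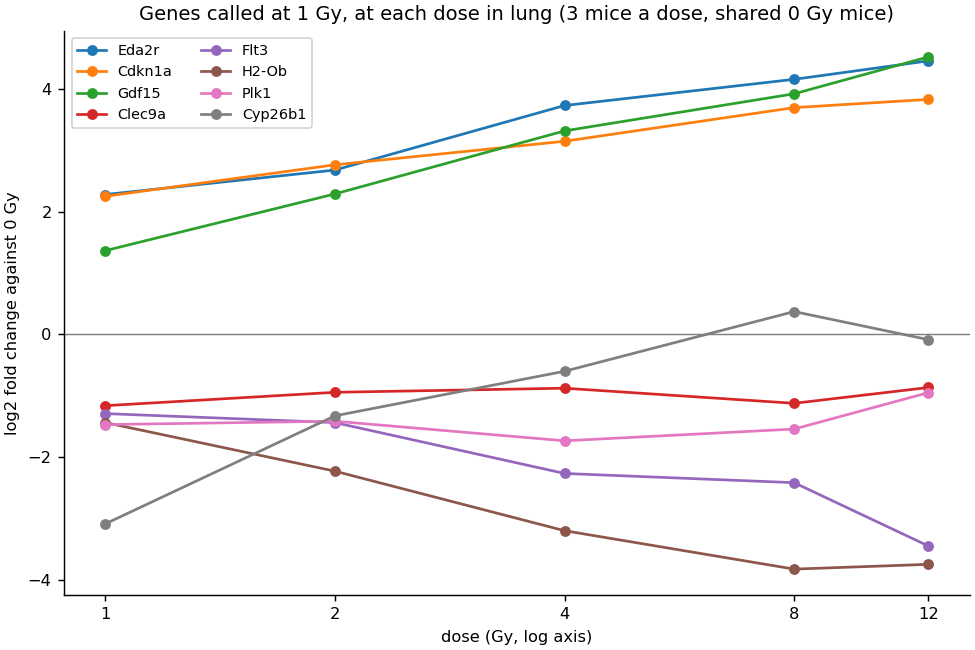
Log2 fold change against the shared 0 Gy mice for the 8 genes called at 1 Gy, at each dose on a logarithmic dose axis, 3 mice a dose. Cdkn1a is shown by its fainter probe (2.25 at 1 Gy and 3.83 at 12 Gy). Cyp26b1 starts at -3.08 and ends near 0, while Eda2r and Gdf15 end at 4.46 and 4.52 and H2-Ob and Flt3 at -3.75 and -3.45.

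The list of 25 p53 target genes had a median difference of 0.31, against 0.01 over all 19875 genes, and 21 members had higher values at 1 Gy. Over all genes 52.3% had a higher and 47.7% a lower value. The called members were Cdkn1a, Eda2r and Gdf15. Of the 25, 11 were higher at an unadjusted p below 0.05, where 2.36% of all genes were, and none was lower. In 16 members every irradiated lung lay above every control, which held for 7.82% of all genes. The mean level of the list was 10.67 to 10.81 in the controls and 11.14 to 11.30 in the irradiated lungs, without overlap.

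The uncalled p53 targets with an unadjusted p below 0.05 differed by 0.50 to 0.86. They were Zmat3, an RNA-binding regulator (0.86), Ccng1, the cyclin G1 gene (0.69), Ddit4l (0.67), the exonuclease gene Aen (0.65), the apoptosis gene Bax (0.56), the ribosomal protein gene Rps27l (0.51), the death receptor gene Tnfrsf10b (0.50) and the epoxide hydrolase gene Ephx1 (0.50). Aen read 12.37, 12.14 and 12.15 at 0 Gy and 12.84, 12.75 and 13.03 at 1 Gy, without overlap (adjusted p = 0.146). Bax read 12.50, 12.52 and 12.35 against 13.08, 13.02 and 12.96 (adjusted p = 0.588).

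The other 14 targets were within 0.31 of 0 in either direction. The pro-apoptotic genes Bbc3 and Pmaip1 gave 0.31 and 0.25, and the Akt inhibitor Phlda3 gave 0.31 (adjusted p = 0.938), with 13.11, 12.93 and 12.60 at 0 Gy and 13.11, 13.33 and 13.11 at 1 Gy. Perp gave 0.30, Trp53inp1 0.29, Ei24 0.29, Mdm2, the ubiquitin ligase of p53, 0.19, the polymerase gene Polk 0.19, the repair nuclease gene Ercc5 0.17 and Sesn2 0.02. Plk2 gave -0.02, Btg2 -0.09 and the death receptor gene Fas -0.09. Gtse1 was not well above background in either group, so it has no fold here. Of the 7 genes of p53 and its regulators none was called. Trp53 itself had lower values at 1 Gy, with 9.16, 9.36 and 9.53 against 8.57, 8.66 and 8.88 (difference -0.65, adjusted p = 0.579), while Mdm4, a p53 inhibitor, gave 0.37.

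In the liver of the same dose groups 13 of 38362 probes were called between 1 and 0 Gy (0.0339%). The brighter Cdkn1a probe gave 2.58 there (adjusted p = 0.000741) and Phlda3 gave 1.14 (adjusted p = 0.0102), while Eda2r gave 1.45 (adjusted p = 0.140) and Gdf15 0.85 (adjusted p = 0.908). Cyp26b1 was called in liver as well, with -3.46 (adjusted p = 0.0435). The median over the 25 p53 targets was 0.17 in liver and 0.31 in lung. When the 36 mRNA arrays were normalized together and the difference between the tissues' 1 Gy responses was fitted, none of the 8 genes called in lung differed between the tissues (adjusted p = 1.00 for each). The lung response minus the liver response was -0.44 for the brighter Cdkn1a probe (standard error 0.31), 0.18 for Eda2r (0.37), 0.57 for Gdf15 (0.73), 0.25 for Cyp26b1 (0.66) and -0.71 for Phlda3 (0.22). The adjusted p values do not show that the tissues respond alike. Across all 47376 probes 1 was called (0.00211%), for Matk, a Src-inhibiting kinase of blood cells, with a 1 Gy difference of -0.74 in lung and 0.66 in liver. The Matk call was kept in 14 of 22 alternatives. With probes averaged per accession its lung minus liver difference was -0.64 (adjusted p = 0.982 by limma).

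**Figure D3:**
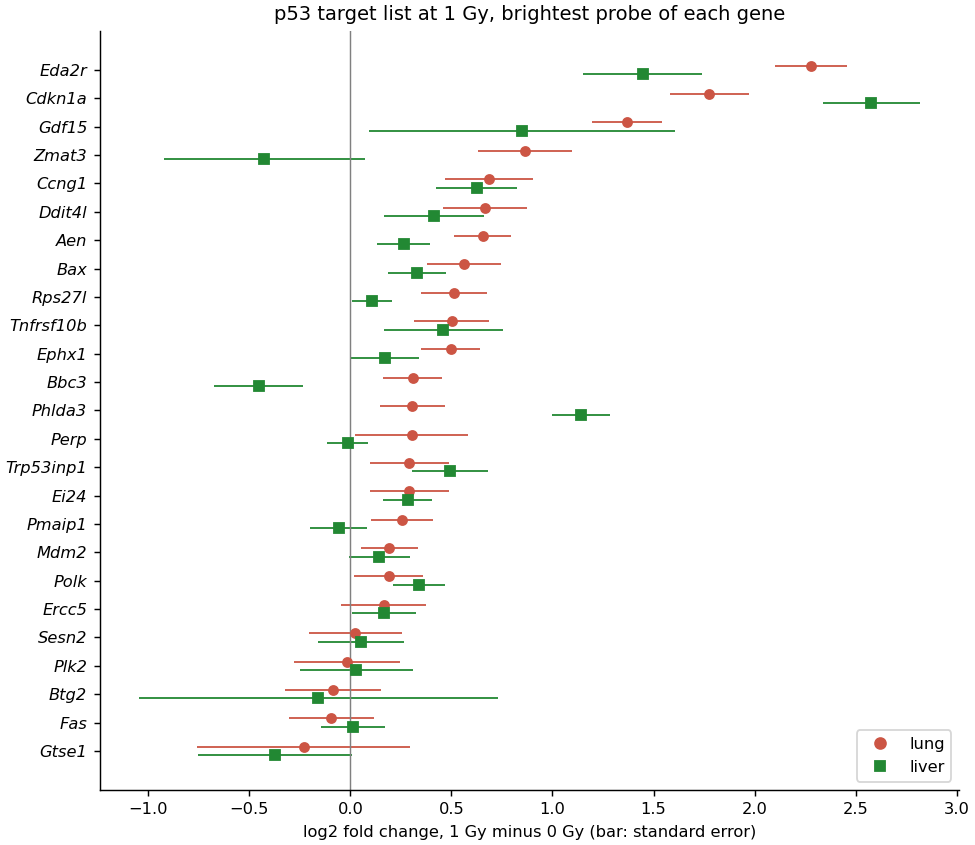
Log2 fold change at 1 Gy for the 25 p53 target genes by their brightest probe, in lung (red circles) and liver (green squares), with standard errors as bars. In lung 21 of 25 lie above 0 and Eda2r, Cdkn1a and Gdf15 stand apart at 1.37 or more, while in liver Cdkn1a is highest at 2.58.

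The 20 proliferation genes all had lower values at 1 Gy, with a median of -1.03. Plk1 was the called member. Of the 20, 16 were lower at an unadjusted p below 0.05, where 3.52% of all genes were, and in 13 every irradiated lung lay below every control, which held for 7.24% of all genes. Mki67, the Ki-67 proliferation marker, read 10.35, 10.54 and 11.91 at 0 Gy and 8.98, 9.57 and 8.82 at 1 Gy (difference -1.81, adjusted p = 0.204). Birc5, which encodes the mitotic protein survivin, read 9.45, 9.89 and 11.39 against 8.26, 8.62 and 8.23 (difference -1.87, adjusted p = 0.133). In these genes control mouse 21 was the highest of the 6, and the groups stayed apart without it.

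Genes that copy and repair DNA were lower by less. The list of 15 DNA replication genes had a median of -0.35 with 14 lower values, 6 of them at an unadjusted p below 0.05, and none was called. Tk1, thymidine kinase 1, had the lowest difference at -1.27 (8.92, 9.46 and 10.13 against 7.97, 8.56 and 8.16, adjusted p = 0.201) and the licensing factor gene Cdt1 gave -0.64. Pcna, the replication clamp, gave 0.03 with overlapping groups. Of 16 genes of DNA damage signalling and repair 12 had lower values, 7 at an unadjusted p below 0.05, with a median of -0.37 and none called. Brca1 read 7.44, 7.56 and 8.27 against 6.93, 6.84 and 6.74 (difference -0.92, adjusted p = 0.167).

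Control mouse 21 stood apart from the other controls in thymocyte and T cell genes. Dntt, the terminal transferase of immature lymphocytes, read 5.83, 8.22 and 13.22 at 0 Gy and 5.22, 5.81 and 5.59 at 1 Gy. The thymus protease gene Prss16 read 10.52 in mouse 21 and 5.23 to 5.69 in the other 5 lungs. The level of the thymus list of 5 tested genes was 9.13 in mouse 21, 5.74 and 6.44 in the other controls and 5.67 to 5.95 at 1 Gy. Its part in the results was not tested beyond leaving this mouse out. Without mouse 21 the median of the 20 proliferation genes was -0.68, with 18 lower values and 12 at an unadjusted p below 0.05, that of the 15 DNA replication genes was -0.18 with 1, and that of the 16 genes of DNA damage signalling and repair was -0.23 with 3.

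In the B cell list 13 of 15 tested genes had lower values at 1 Gy, with a median of -0.91 and none called. Of these, 10 were lower at an unadjusted p below 0.05 (3.52% of all genes) and 11 without overlap (7.24% of all genes). Fcmr, the IgM receptor gene, read 11.52, 12.35 and 12.85 at 0 Gy and 10.99, 10.39 and 11.21 at 1 Gy (difference -1.37, adjusted p = 0.150), and Fcer2a, the low-affinity IgE receptor gene, gave -1.35 (adjusted p = 0.323). Cd22, an inhibitory co-receptor of the B cell receptor, read 8.25, 8.39 and 8.63 against 7.47, 7.21 and 7.56 (difference -1.01, adjusted p = 0.0607). Ms4a1, which encodes the CD20 antigen, gave -0.59 with overlapping groups, and Serpina9, a serpin of B cells, gave 0.31. The B cell list level was 9.55 to 10.37 at 0 Gy and 8.996 to 9.42 at 1 Gy. Without control mouse 21 its median was -0.73, with 9 genes lower at an unadjusted p below 0.05.

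All 13 T cell genes had lower values, 7 at an unadjusted p below 0.05, with a median of -0.82 and none called. The size of these differences rested largely on control mouse 21. Cd8a, a co-receptor chain of cytotoxic T cells, read 8.61, 9.23 and 12.06 at 0 Gy and 8.28, 8.05 and 8.23 at 1 Gy. Without control mouse 21 all 13 still had lower values, but the median was -0.30 and 2 genes were lower at an unadjusted p below 0.05. The 9 NK cell genes had a median of -0.09, none passed an unadjusted p of 0.05, and the list level overlapped (9.44 to 9.47 at 0 Gy and 9.31 to 9.57 at 1 Gy).

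The 9 MHC class II genes, which present antigen to CD4 T cells, all had lower values, 8 of them at an unadjusted p below 0.05 (3.52% of all genes) and 8 without overlap (7.24% of all genes). The median was -0.64, and H2-Ob was the called member. The classical chain genes H2-Eb1 and H2-Ab1 gave -0.63 and -0.64, and H2-Eb1 read 15.42, 15.22 and 15.26 at 0 Gy and 14.69, 14.61 and 14.72 at 1 Gy (adjusted p = 0.146). H2-Aa gave -0.31 with overlapping groups. The invariant chain gene Cd74 gave -0.51, the peptide exchange genes H2-DMa and H2-DMb1 -0.69 and -0.36, and Ciita, the transactivator of the class, -0.74. H2-Oa and H2-Ob had the lowest differences. The list level was 13.00 to 13.14 at 0 Gy and 12.27 to 12.42 at 1 Gy, and without control mouse 21 the median was -0.65.

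**Figure D4:**
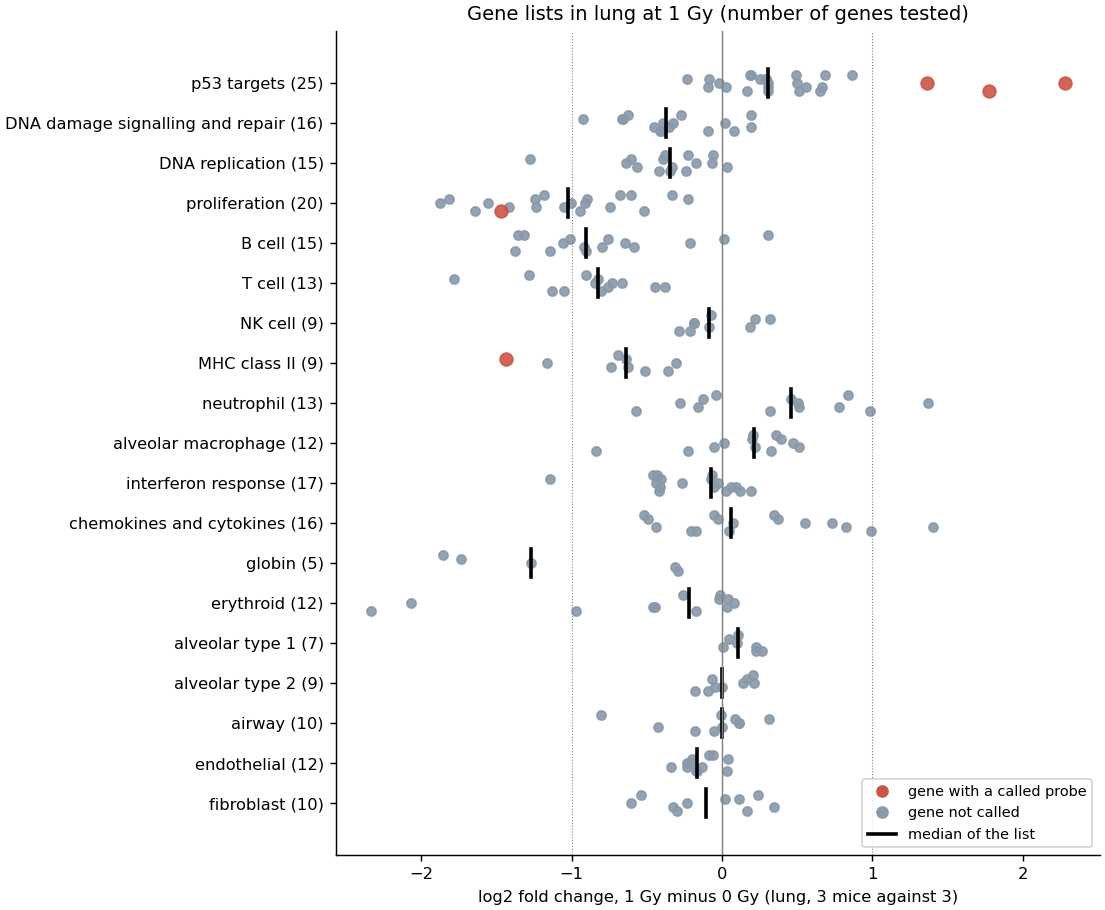
Log2 fold change at 1 Gy of every tested gene of 19 lists, 1 point a gene by its brightest probe, with the number of genes in brackets, the list median as a bar and genes with a called probe in red. The dotted lines mark the 2-fold threshold. The p53 targets lie to the right (median 0.31), the proliferation, B cell, T cell, MHC class II and globin genes to the left, and the alveolar, airway and endothelial genes around 0.

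Transcripts of red blood cells had lower values at 1 Gy, by least in mouse 12. Alas2, the first enzyme of heme synthesis in erythroid cells, read 13.58, 13.80 and 13.47 at 0 Gy and 10.32, 12.58 and 10.95 at 1 Gy (difference -2.33, standard error 0.43, adjusted p = 0.0849). Slc4a1, the anion exchanger of the red cell membrane, read 8.47, 9.61 and 9.26 against 6.00, 8.44 and 6.70 (difference -2.07, adjusted p = 0.195). Mouse 12 was the irradiated lung nearest to the controls in both. All 5 globin genes had lower values, 3 at an unadjusted p below 0.05, with a median of -1.27 and none called. The beta globin genes Hbb-bt, Hbb-b2 and Hbb-b1 gave -1.86, -1.74 and -1.27, and the alpha globin genes Hba-a1 and Hba-a2 gave -0.29 and -0.31.

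Hbb-bt read 16.89, 17.30 and 17.28 at 0 Gy and 14.53, 16.44 and 14.92 at 1 Gy, without overlap (adjusted p = 0.111). Both alpha globin genes read close to 17.4 in the controls and between 16.69 and 17.44 at 1 Gy. The top of the intensity range that quantile normalization allows was 18.6, the level of Scgb1a1 on every array. The part of this range in the alpha globin differences was not tested, and Hbb-bt read nearly as bright in the controls. The globin genes have near-identical copies that a probe may not separate. Without mouse 12 the globin median was -1.78, and without mouse 2 it was -0.89. At 2, 4, 8 and 12 Gy it was -2.75, -4.36, -5.00 and -5.82 against the same controls. The list of 12 tested erythroid genes as a whole had a median of -0.22, with 9 lower values, 4 at an unadjusted p below 0.05, and the regulators Tal1 and Hemgn at -0.02.

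Of 13 neutrophil genes 8 had higher and 5 lower values, with a median of 0.46 and none called, where 52.3% of all genes had higher values. Of the 8, 5 were higher at an unadjusted p below 0.05 (2.36% of all genes). The stefin gene Stfa2l1 read 6.39, 7.30 and 7.32 at 0 Gy and 8.48, 8.38 and 8.26 at 1 Gy (difference 1.37, adjusted p = 0.233), and S100a8, a calprotectin subunit, read 11.13, 12.08 and 12.23 against 12.76, 12.97 and 12.66 (difference 0.98, adjusted p = 0.583). S100a9 gave 0.78, and the granule genes of immature neutrophils Camp, Ltf and Ngp gave -0.57, -0.04 and -0.13 with overlapping groups. Control mouse 1 was the lowest lung in Stfa2l1, S100a8, S100a9 and Retnlg. Without it 12 of 13 neutrophil genes were higher, with a median of 0.29 and 2 at an unadjusted p below 0.05.

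Of 16 chemokine and cytokine genes 9 had higher values, close to the 52.3% of all genes, with a median of 0.06 and none called. Of these, 4 were higher at an unadjusted p below 0.05 (2.36% of all genes) and 5 without overlap (7.82% of all genes). The other 7 had lower values, down to -0.52. None of the 7 had an unadjusted p below 0.05, and 2 were lower without overlap (7.24% of all genes). Beside Cxcl5, the monocyte attractant Ccl2 read 8.11, 8.85 and 8.88 against 9.17, 9.37 and 9.78 (difference 0.82, adjusted p = 0.571), and the neutrophil attractant Cxcl1 gave 0.55. At 2, 4, 8 and 12 Gy the differences of Cxcl5 were 0.41, 0.25, 0.23 and 1.19. In the acute phase list of 7 genes Saa3, a serum amyloid A of macrophages and epithelium, read 9.77, 10.33 and 9.53 at 0 Gy and 11.10, 12.21 and 12.48 at 1 Gy (difference 2.06, standard error 0.60, adjusted p = 0.464). The groups did not overlap, and irradiated mouse 2 lay below the other irradiated mice. Saa1 gave 1.08 and the list median was 0.22.

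Of 17 interferon response genes 12 had lower values, 4 at an unadjusted p below 0.05, with a median of -0.08 and none called. Rsad2, the antiviral protein viperin, read 10.34, 10.79 and 11.13 against 9.27, 9.98 and 9.59 (difference -1.14, adjusted p = 0.111). The transcription factor gene Irf7 gave -0.44, and Ifit1 and Ifit3 gave -0.06 and -0.05.

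Genes of the resident lung cells differed little between the groups. The medians were 0.00 over 9 alveolar type 2 genes, 0.11 over 7 alveolar type 1 genes, 0.00 over 10 airway genes, -0.17 over 12 endothelial genes and -0.10 over 10 fibroblast genes, and none of these genes was called. The type 1 genes were higher in all 7, by at most 0.26 for Ager, and none had an unadjusted p below 0.05. Ager read 17.51, 17.68 and 17.60 at 0 Gy and 17.82, 17.97 and 17.80 at 1 Gy (adjusted p = 0.915). In 3 of the 7 every irradiated lung lay above every control, which held for 7.82% of all genes. The type 1 list level was 15.33 to 15.36 at 0 Gy and 15.42 to 15.52 at 1 Gy, without overlap. Sftpc and the club cell gene Scgb1a1 were the brightest probes on every array, and quantile normalization gives such probes the same value on all arrays, so these genes cannot show a difference here. Sftpd, another surfactant protein, gave 0.21. The mucin gene Muc5b read 14.38, 13.57 and 12.47 against 12.59, 12.88 and 12.54 (difference -0.81, adjusted p = 0.898). The 12 alveolar macrophage genes had a median of 0.21 with 9 higher values, none at an unadjusted p below 0.05, and the receptor gene Siglecf gave 0.52.

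Genes of hepatocytes, skeletal muscle and adipocytes varied from lung to lung, and the source of these transcripts was not measured. All 15 hepatocyte genes had lower values at 1 Gy, with a median of -1.48, 2 at an unadjusted p below 0.05 and none called. In 6 of them every irradiated lung lay below every control, which held for 7.24% of all genes. Their list level was 7.72, 8.89 and 9.54 in control mice 1, 11 and 21 and 6.88 to 7.10 at 1 Gy. Ttr, transthyretin, was not well above background on any irradiated array and its fold was at least 23.7 in the controls, and Serpina1a read 8.39, 11.17 and 12.10 against 6.72, 6.72 and 7.07. At 2 Gy the median of the same list was 1.05 above the controls. The skeletal muscle list stood at 12.39 in control mouse 11, 10.44 and 11.34 in irradiated mice 12 and 22 and 6.67 to 6.75 in the other 3 lungs. The adipocyte list was lowest in irradiated mouse 2, at 11.59 against 13.27 to 14.50 in the other 5. Their part in the results was not tested.

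**Figure D5:**
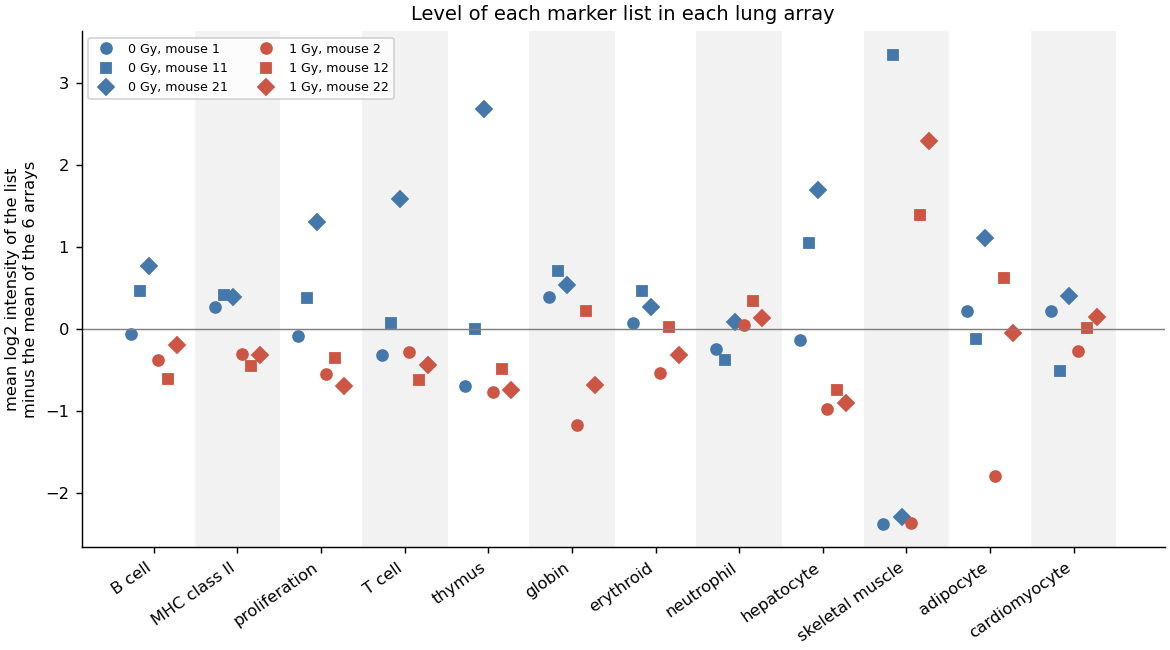
Mean log2 intensity of 12 marker lists in each lung, minus the mean of the 6 lungs, with 1 symbol a mouse (blue 0 Gy, red 1 Gy). B cell, MHC class II, proliferation, globin, erythroid and hepatocyte levels do not overlap between the groups. The thymus and T cell levels single out control mouse 21. The globin level of irradiated mouse 12 lies near the controls, and the skeletal muscle level splits both groups.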

How the data were processed

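Lung RNA of 3 mice a dose was measured on 1-colour Agilent arrays. The authors deposited the output of Agilent Feature Extraction 11.5.1.1, with a median intensity per spot and per surrounding background, on a linear scale and not normalized from array to array. They also deposited series values, linear intensity values with a floor of 0.01 and a 75th percentile of 1.01 on each of the 6 arrays. How these were made is not given in the sources used here, and they served only as an alternative. Their medians were 0.07 to 0.08, and their Spearman correlation with the scanner values was 0.982 to 0.987.

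Tests used limma 3.58.1 and statmod 1.5.0 under R 4.3.3, files were read with data.table (version 1.17.8), and the plots were drawn by matplotlib 3.10.9 under Python 3.11.15. Spot medians were background-corrected (normexp, offset 0), control spots were left out, and outlier spots were set to missing. The 18 lung arrays were quantile-normalized and put on the log2 scale, and spots of a probe were averaged. A probe was kept where, on 1 array or more, a share of 0.5 or more of its spots was well above background. Kept probes were tested by limma, 1 mean for each of the 6 doses and moderated errors, with Benjamini-Hochberg adjustment over all of them. All adjusted p values are from limma. The number of arrays limits the precision. Each lung mRNA sample was taken as a separate animal, since the sample numbers differ and the study had 3 animals a dose. Liver and lung samples share these numbers, so samples of different tissues are not shown to be separate animals.

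The scanner files carry no gene symbols, and 34566 of 56605 probes were named through their transcript accession in a RefSeq table (GRCm38.p6). Probes with other identifiers are unnamed here. A gene with several probes was taken by its brightest probe in counts over genes and lists. Named were, 1 probe a gene, the called genes of largest difference with separated groups (at most 10 a direction, filled with uncalled genes past 2-fold in order of p), all members of the p53 target and globin lists, called members of any list, the genes the study leads with and, of other lists, the members with the largest differences, at most 2 a direction. Further genes of the MHC class II, neutrophil, erythroid, interferon and lung cell lists, and Cd22 and Cd37, were named after their values were seen. The comparison, the lists and the naming rule were chosen with earlier results of these data known, and the scripts were tested on simulated data. The alternatives tried were the background offset, the scaling, the series values, the filter on dim probes, the arrays in the model, the slide, averaging of probes and leaving out each mouse.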

Additional observations from a re-analysis of the deposited data

Results flagged for a closer look

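Matk was the 1 probe of 47376 whose response to 1 Gy differed between lung and liver by the test of that difference itself (36 arrays normalized together, limma). Its difference at 1 Gy was -0.74 in lung, from a mean of 8.35 to 7.61, and 0.66 in liver, from 8.93 to 9.60, so that lung minus liver was -1.41 (standard error 0.21, adjusted p = 0.0152). In lung alone, Matk read 9.08, 8.97 and 9.10 at 0 Gy and 8.23, 8.42 and 8.34 at 1 Gy, without overlap, and it was not called there (difference -0.72, adjusted p = 0.0607). The call was kept in 14 of 22 alternatives. It was lost with only the arrays compared (adjusted p = 0.950), with the mouse number as a fixed block (0.354), with probes averaged per accession (-0.64, adjusted p = 0.982), and without control lung mouse 1 or 21, irradiated lung mouse 2 or control liver mouse 11 or 21 (0.0533 to 0.117). Of the 47376 probes, 1850 had a tissue difference with an unadjusted p below 0.05 by limma, where a share of 0.05 would pass if nothing differed.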

How the results depend on the processing

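The 10 calls between 1 and 0 Gy became 40 with a background offset of 50 (6 higher, 34 lower), 17 with the processed signal scaled to the 75th percentile, 36 with the authors' series values, 32 when probes had to be well above background on at least 3 of the 6 arrays, 55 with liver and lung normalized and fitted together, 16 with the slide as a fixed term, 18 with the slide as a random block and 35 at an adjusted p below 0.1, a threshold added after seeing the data. They became 0 with only the arrays compared. Leaving out 1 mouse gave 8 to 27. Cdkn1a, Eda2r, Cyp26b1 and Plk1 were called in 15 of 16 alternatives, H2-Ob in 14, Gdf15 in 13, Flt3 in 7 and Clec9a in 5, and these 8 kept their direction in all 16. The cause of these shifts was not tested.

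The 1 call between 2 and 1 Gy became 2 with an offset of 50, 12 with the 75th percentile, 8 with the series values and 2 with both tissues together. It became 0 without a filter on dim probes, with only the arrays compared and with the slide as a random block, and leaving out 1 mouse gave 0 to 4. Slide as a fixed term was not run, since it cannot be estimated there. The 1 call between the tissues became 2 with an offset of 50, 7 with the 75th percentile, 8 with the series values, 2 with the filter at 3 of 6 arrays and 0 with only the arrays compared or with probes averaged per accession. Leaving out 1 mouse gave 0 to 10, with 8 and 10 without liver mice 2 and 12.

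No paired analysis was possible for 1 against 0 Gy because these mice share no replicate numbers. Lung and liver arrays share mouse numbers, but same-numbered arrays did not deviate together (r from -0.05 to 0.05 over 18 pairs, none above 0.1, and 5 arrays correlating best with their own number). With the mouse number as a fixed replicate block the count of tissue differences was 1 (Hba-a1, 2.27, in place of Matk), and with a random replicate block it was 1 (Matk).

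Among the named genes the values of 6, all uncalled, changed sign. One of them, Gtse1, was not well above background in either group, so its values carry no direction. With the 75th percentile Plk2 became 0.0296 and Gtse1 0.24, with the series values they became 0.0341 and 0, and with averaged probes Btg2 became 0.0263. Leaving out 1 mouse gave -0.23 to 0.0992 for Plk2, -0.52 to 0.0186 for Gtse1, -0.27 to 0.15 for Btg2, -0.18 to 0.19 for Pcna, -0.20 to 0.21 for Sesn2 and -2.47 (without control mouse 1) to 0.17 (without control mouse 21) for Prss16. Of 36 lists the median of 10 changed sign in some alternative, each of them within 0.097 of 0 at first (p53 regulators, NK cell, platelet, alveolar type 2, airway, smooth muscle, cardiomyocyte, immediate early, glucocorticoid and heat shock genes). In the 13 lists compared with their replicate spread, 195 medians moved by less than it and 13 by more.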

Other observations

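Because Flt3 and Clec9a were among the called genes, lists of dendritic cell and of monocyte genes were drawn up after their values were seen, so their counts are a description. Of 12 dendritic cell genes 10 had lower values at 1 Gy, with a median of -0.74. Of these, 8 were lower at an unadjusted p below 0.05 (3.52% of all genes) and 8 without overlap (7.24% of all genes), Flt3 and Clec9a among them. Irf8, a transcription factor of this lineage, gave -0.88 and Wdfy4, which serves cross-presentation, gave -0.79, while Zbtb46 gave 0.05 and Cd209a -0.14. The list level was 9.31 to 9.38 in the controls and 8.75 to 8.95 at 1 Gy. Control mouse 21 did not stand apart in it.

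Of 10 monocyte genes 9 had lower values, 5 at an unadjusted p below 0.05, with a median of -0.52. The lowest were Treml4, which read 10.59, 10.28 and 10.65 against 9.28, 9.56 and 9.15 (difference -1.18, adjusted p = 0.0849), Cd300e at -1.04 and Cx3cr1 at -0.83, all genes of patrolling monocytes. The classical monocyte genes Ly6c2 and Ccr2 gave 0.22 and -0.26. The list level was 10.78 to 10.87 in the controls and 10.24 to 10.37 at 1 Gy.

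The remaining lists had no called member at 1 Gy. The medians were -0.16 over 15 circadian clock genes, 0.09 over 13 immediate early genes, -0.02 over 9 glucocorticoid responsive genes, 0.07 over 9 heat shock genes, 0.03 over 7 platelet genes, 0.26 over 7 mast cell and basophil genes, 0.40 over 5 mesothelial genes and -0.10 over 6 smooth muscle genes, and none of these genes had an unadjusted p below 0.05.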
